A study of Homo sapiens with 3 samples.

Results

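Ribosome biogenesis genes encode the nucleolar factors that transcribe, modify, cut and assemble ribosomal RNA, and 38 of them were followed here in the neuroblastoma cell lines NGP and IMR-32 and in a reference pool of cancer cell lines. The genes were taken by name, from a list drawn up with earlier results of these data known. A gene was measured where a probe set of the array names that gene alone, which held for 33 of the 38 genes, with 71 probe sets, of 19775 genes and 41091 probe sets in all. NOP56, GNL3, PPAN, EBNA1BP2 and DDX18 had no such probe set. NGP and IMR-32 are neuroblastoma lines, NGP with amplified MYCN and several amplified regions of 12q, IMR-32 with amplified MYCN and other regions of 2p, and the pool holds RNA of 16 cancer cell lines that the sources used here do not name. NGP and IMR-32 were in regular growth medium with no treatment named, RPMI 1640 for NGP and Minimum Essential Medium for IMR-32. The sources used here do not say how the lines of the pool were grown. Poly(A) RNA of each of the 3 samples was hybridized to 1 Affymetrix U133 Plus 2.0 array, so each line is represented by 1 RNA sample. No sample was repeated, and both lines are set against the same pool array, so the differences carry no replicate error and are given without p-values.

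In the nucleolus, RNA polymerase I makes a long precursor RNA that holds the RNAs of the small and the large ribosomal subunit. Small nucleolar ribonucleoprotein particles (snoRNPs) modify the precursor, a large early particle called the small subunit processome folds and cuts its small subunit part, and a separate chain of factors matures the large subunit. Ribosome biogenesis genes are known as a core group of genes activated by MYC family transcription factors, and MYCN is the family member that is amplified in many neuroblastomas.

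Values are MAS5 signals on a linear scale, as deposited, scaled in each array to a mean of 500 after trimming 2% of values from each end. A ratio is the log2 of the quotient of 2 signals of a probe set without a pseudocount, and the value of a gene is the median over its probe sets. Genes within the top or bottom 7% of all genes in a comparison were called higher or lower, with cut-offs at 1.84 and -2.88 for NGP over the pool, 1.68 and -2.83 for IMR-32 over the pool, and 1.95 and -1.84 for NGP over IMR-32. The brightest probe set of a gene is the one with the highest mean log2 signal over the 3 arrays. Among probe sets of the same gene that were not dim, the standard deviation of the ratio was 1.09, 0.97 and 0.87 in these comparisons, where dim means a signal below the array median in both samples. Median array signals were 98.8 in NGP, 89.9 in IMR-32 and 119 in the pool. The signal of the GAPDH control at the 3' end over that at the 5' end was 0.87, 0.96 and 1.02 in NGP, IMR-32 and the pool, and that of the beta-actin control 1.40, 1.16 and 1.37. Of 9 measured sympathoadrenal markers, 8 were called higher in NGP and 5 in IMR-32 than in the pool. In IMR-32, 3 of the 9 lay below the pool, the lowest at -1.40, while in NGP 0 did. Of 5 epithelial markers, 5 were called lower in each line. In cultures measured in bulk, fewer cells of a type and less RNA per cell cannot be told apart.

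The nucleolar genes were bright in all samples and most lay close to the level of the pool. Of their 71 probe sets, 59 were at or above the array median in all 3 arrays (83.1%), against 44.0% of all probe sets that name 1 gene, and each of the 33 genes had at least 1 such probe set. The median log2 ratio over the pool was 0.02 in NGP and 0.15 in IMR-32, against -0.22 and -0.23 over all genes, and between NGP and IMR-32 it was 0.04, against 0.02. The values of the 33 genes had a standard deviation of 0.75 in NGP over the pool, 0.65 in IMR-32 over the pool and 0.64 in NGP over IMR-32, while those of all genes had 1.67, 1.60 and 1.37. Of the 33 genes, 0 passed a cut-off over the pool in NGP or in IMR-32 (7.0% of all genes at each end). Set against IMR-32, 0 were called higher in NGP and 1 was called lower, DDX10 (7.0% of all genes at each end). The scale of the arrays bears on the medians. Dividing each array by its median moved the median over all genes by 0.27 for NGP over the pool, 0.41 for IMR-32 over the pool and -0.14 for NGP over IMR-32. The medians of the 33 genes were then 0.29 for NGP over the pool, 0.56 for IMR-32 over the pool and -0.09 for NGP over IMR-32. With quantile-normalized arrays they were -0.03, 0.20 and 0.05. The median of IMR-32 over the pool was thus above 0 under each scaling, and the others were not.

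At 2-fold, a less strict measure, the nucleolar genes again stayed mostly inside. Within 2-fold of the pool were 28 of 33 genes in NGP (84.8%), against 57.5% of all genes, and 29 of 33 in IMR-32 (87.9%), against 58.7%. NGP lay within 2-fold of IMR-32 for 30 of 33 genes (90.9%), against 66.9% of all genes. Among genes without dim probe sets these shares were 58.1% for NGP over the pool, 60.0% for IMR-32 over the pool and 71.3% for NGP over IMR-32. For 25 of the 33 genes all of these ratios were within 2-fold, as they were for 38.4% of all genes and for 48.3% of genes without dim probe sets. The 8 others were FBL, POLR1B, WDR12, BYSL, PES1, NOP16, MRTO4 and DDX10. Over 2-fold higher than the pool were 3 genes in NGP (15.4% of all genes) and 2 in IMR-32 (14.4%), and over 2-fold lower were 2 in NGP (27.1%) and 2 in IMR-32 (26.9%). Between the lines, 2 genes were over 2-fold higher in NGP (17.2% of all genes) and 1 was over 2-fold lower (15.9%).

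**Figure D1:**
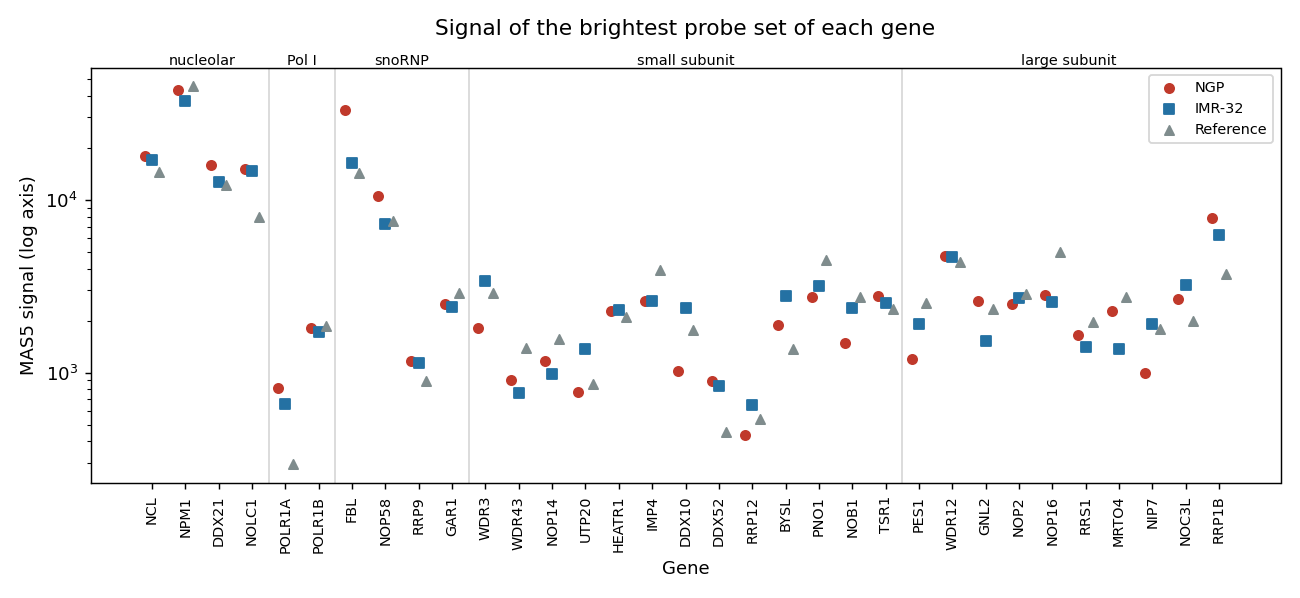
MAS5 signal (log y-axis) of the brightest probe set of each of the 33 measured genes (x-axis, grouped by role) in NGP (circles), IMR-32 (squares) and the reference pool (triangles), 1 array each. For most genes the 3 symbols lie close together, while FBL is higher in NGP (33201) than in IMR-32 (16333) and the pool (14335).

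MYC lay much further from the pool than any of the nucleolar genes, and MYCN was higher in both lines. MYC had a signal of 85.3 in NGP and 11.1 in IMR-32, against 22905 in the pool, from 1 probe set that lay below the array median in both lines. The brightest of 10 MYCN probe sets had a signal of 46144 in NGP and 31846 in IMR-32, against 8493 in the pool. Over all of them the MYCN gene value was 1.63 in NGP, below the cut-off, and 1.89 in IMR-32, above it. The brightest probe set of MYCL, the third family member, was at 124 in NGP and 85.4 in IMR-32, against 212 in the pool, while its gene value over 2 probe sets was 0.74 in NGP and 0.61 in IMR-32. The part of these levels in those of the nucleolar genes was not tested.

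Because MYC family proteins bind, together with MAX, the palindromic E-box of the letters CACGTG, the promoter windows of the listed genes were searched for it. RefSeq windows (GRCh38.p14), of 250 bases before and 50 bases after each annotated gene start, were matched by symbol for 31 of the 38 genes, with 39 windows. The motif reads the same on both strands and no other motif was searched. It was found for 17 of the 31 genes (54.8%), against 8.77% of 27305 genes with such a window and 10.9% of the 15384 of them measured here. Of 63 ribosomal protein genes with a window, 4 held it (6.35%), and of 113 further ribosome biogenesis genes 29 did (25.7%). Most matches in the nucleolar genes lay just at the gene start. Of 19 matches, 14 began after the start, from base 4 to base 43. Matches that began no more than 20 bases before the start were also counted, a limit chosen after the positions were seen. Of the 31 genes 16 had one (51.6%), against 1.97% of all genes and 2.42% of those measured here. Of the 113 further ribosome biogenesis genes 18 had one (15.9%), and of the 63 ribosomal protein genes 2 did (3.17%). A match is a run of letters and not a measured binding site. The following windows of 30 bases show the motif, in capitals, in 10 of these genes, each read 5′ to 3′ on the strand of the gene, with the position of the motif counted from an annotated start of the gene (1 is the start base):
UTP20, position -10, chr12:101280083-101280112, plus strand: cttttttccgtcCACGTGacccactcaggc
RRP9, position -5, chr3:51941892-51941921, minus strand: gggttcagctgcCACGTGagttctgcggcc
GNL2, position 4, chr1:37595917-37595946, minus strand: gtacgtcgtgcaCACGTGgtccggcgtggt
WDR43, position 4, chr2:28894658-28894687, plus strand: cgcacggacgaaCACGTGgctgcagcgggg
FBL, position 7, chr19:39846356-39846385, minus strand: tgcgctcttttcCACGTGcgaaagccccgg
PNO1, position 10, chr2:68157885-68157914, plus strand: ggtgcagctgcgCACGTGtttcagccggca
PES1, position 14, chr22:30591880-30591909, minus strand: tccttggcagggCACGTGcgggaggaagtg
MRTO4, position 15, chr1:19251807-19251836, plus strand: cgtcttccgccgCACGTGgattcagcgcga
IMP4, position 16, chr2:130342900-130342929, plus strand: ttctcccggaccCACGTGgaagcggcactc
NOP14, position 16, chr4:2963374-2963403, minus strand: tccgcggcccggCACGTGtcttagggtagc

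Genes with and without the motif overlapped in their ratios. The 15 measured genes with a match had a median of -0.15 over the pool in NGP and -0.28 in IMR-32 on the log2 scale, ranging from -1.34 to 1.21 and from -1.22 to 1.01. The 12 measured genes with a window and no match had medians of 0.19 and 0.32, ranging from -2.38 to 1.11 and from -1.60 to 1.22.

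**Figure D2:**
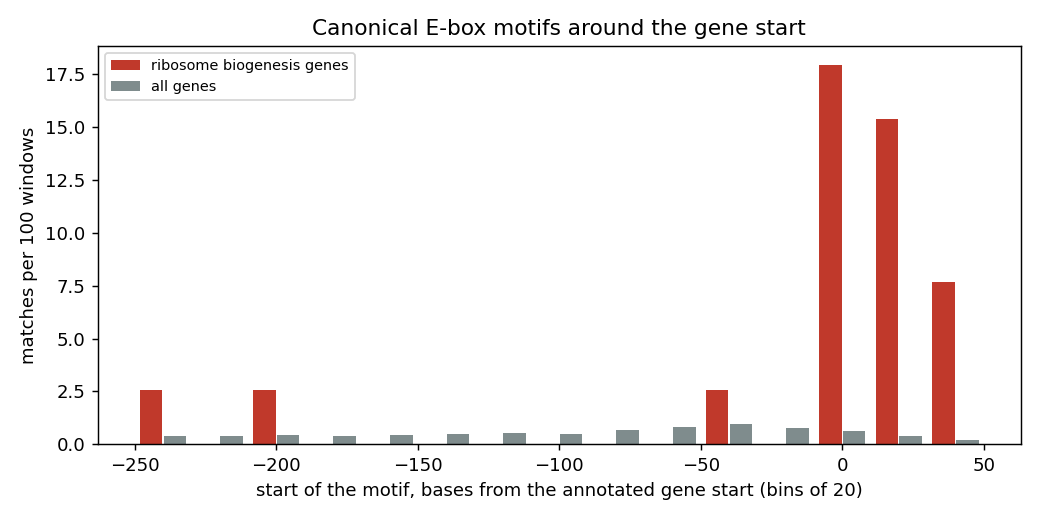
Matches of the canonical E-box per 100 promoter windows (y-axis) by the position of the match from the annotated gene start (x-axis, bins of 20 bases, with the start base at 0), in windows of the ribosome biogenesis genes (left bars) and in all RefSeq windows (right bars). The ribosome biogenesis genes have 17.9 matches per 100 windows in the bin from -10 to 10 bases, where all windows have 0.607.

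Among the abundant nucleolar proteins all 4 genes were within 2-fold of the pool in both lines. NPM1, a histone and ribosomal protein chaperone of the nucleolus, had the highest signals of the list, 43261 in NGP and 37148 in IMR-32, against 45325 in the pool, with its brightest probe set. Its 3 probe sets gave a ratio of -0.07 in NGP and -0.29 in IMR-32. NCL, nucleolin, which binds the precursor RNA, had a signal of 18024 in NGP and 17041 in IMR-32, against 14460 in the pool. Its gene value, 0.96 in NGP and 0.78 in IMR-32, lay higher than this probe set gives (0.32 and 0.24), because a weak probe set was at 1.61 and 1.33. All 4 genes had signals far above the array medians. DDX21, an RNA helicase that acts on transcription by RNA polymerase I and on snoRNAs, was at 15817 in NGP and 12728 in IMR-32, against 12123 in the pool. NOLC1, also called Nopp140, a chaperone of snoRNPs, lay 0.25 above the pool in NGP and 0.26 in IMR-32. With its brightest probe set alone NOLC1 was at 15165 in NGP and 14633 in IMR-32, against 7991 in the pool.

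Both measured subunits of RNA polymerase I were above the pool in each line by less than the cut-off. POLR1A, the largest subunit, lay 0.49 above the pool in NGP and 0.37 in IMR-32, and its 3 probe sets all lay above 0, up to 1.47 and 1.16. POLR1B, the second largest subunit, was at 1.08 in NGP and 0.52 in IMR-32. Its brightest probe set was level in the samples, with 1807 in NGP and 1722 in IMR-32, against 1867 in the pool, while its 3 other probe sets were higher in both lines, by 1.04 to 1.27 in NGP and by 0.52 to 1.21 in IMR-32. The 16 further measured genes of this role lay nearer the pool, with medians of -0.01 in NGP and 0.12 in IMR-32 and with 8 and 5 genes below 0.

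Among the snoRNP genes FBL stood out in NGP. FBL, fibrillarin, the methyltransferase of the box C/D snoRNPs, had a signal of 33201 in NGP and 16333 in IMR-32, against 14335 in the pool, from 1 probe set. The NGP level was thus 2.32-fold that of the pool and 2.03-fold that of IMR-32, which are log2 ratios of 1.21 and 1.02, below the cut-offs. NOP58, a core protein of the same particles, was also highest in NGP, by less, with 10574 in NGP and 7211 in IMR-32, against 7544 in the pool. RRP9, which belongs to the U3 snoRNP that guides the first cuts of the precursor, was at 1164 in NGP and 1129 in IMR-32, against 897 in the pool. GAR1, a protein of the box H/ACA snoRNPs that make pseudouridine, was lower in both lines, at 2477 in NGP and 2388 in IMR-32, against 2895 in the pool. For RRP9 and GAR1 the lines differed by 0.04 and 0.05 on the log2 scale, far less than probe sets of a gene differ.

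Genes of the small subunit pathway were the role in which NGP most often lay below IMR-32. Of its 13 genes, 9 had a value below 0 for NGP over IMR-32, with a median of -0.30, against 0.02 over all genes. This median stayed below 0 under all 7 other settings of scaling and probe sets, which were applied to the role groups after the data were seen. Over the pool the medians were -0.40 in NGP and 0.15 in IMR-32. Of further genes of the pathway, NGP was below IMR-32 for 31 of 45 of the small subunit and 24 of 42 of the large subunit. The same held for 12 of 16 of RNA polymerase I, 6 of 10 of snoRNPs and 9 of 12 of the exosome. Among the further genes this direction was thus not particular to the small subunit role. Among the listed genes the other roles did not share it. NGP was below IMR-32 for 4 of 10 of the large subunit, 1 of 4 abundant nucleolar proteins, 0 of 4 of snoRNPs and 0 of 2 of RNA polymerase I. UTP20, a scaffold protein of the processome, had a signal of 775 in NGP and 1371 in IMR-32, against 862 in the pool. BYSL, bystin, needed for late processing of the precursor, was at 1874 in NGP and 2765 in IMR-32, against 1375 in the pool, and its ratio of 1.01 in IMR-32 was 1 of the 2 over 2-fold in that line. NOB1, the nuclease that makes the last cut of the small subunit RNA, was at 1474 in NGP and 2362 in IMR-32, against 2728 in the pool. WDR3, a processome component known as UTP12 in yeast, was at 1807 in NGP and 3386 in IMR-32, against 2881 in the pool, with its brighter probe set. The WDR3 value over the pool, 0.35 in NGP and 0.86 in IMR-32, is raised by a weak probe set at 1.38 and 1.48. RRP12, an export factor of pre-ribosomes, has 5 probe sets, whose median was -0.40 in NGP and 0.15 in IMR-32. TSR1, an assembly factor of late small subunit precursors, was at 0.02 in NGP and 0.27 in IMR-32.

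Other small subunit genes differed little between the lines. IMP4, a protein of the U3 snoRNP, was at 2591 in NGP and 2583 in IMR-32, against 3934 in the pool. HEATR1, UTP10 in yeast, was at 2261 in NGP and 2305 in IMR-32, against 2087 in the pool, with its brightest of 5 probe sets. The HEATR1 gene value over the pool was higher than this probe set gives, at 0.80 in NGP and 0.79 in IMR-32. WDR43 (-0.60 in NGP and -0.85 in IMR-32), NOP14 (-0.42 and -0.68) and PNO1 (-0.43 and -0.31) were below the pool in both lines by less than 2-fold. WDR43 and NOP14 are processome components, and PNO1 is an RNA-binding factor that works with NOB1. DDX52, an RNA helicase known as Rok1 in yeast, was at 0.36 in NGP and 0.56 in IMR-32. These ratios are all smaller than the typical difference between probe sets of 1 gene.

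DDX10 alone passed a cut-off. This RNA helicase, Dbp4 in yeast, acts in the release of U14 snoRNA from the precursor there. Its brighter probe set had a signal of 1017 in NGP and 2369 in IMR-32, against 1758 in the pool, and its dim probe set 5.17 in NGP and 64.3 in IMR-32, against 81.5 in the pool. The gene value was -2.43 for NGP over IMR-32, past the cut-off of -1.84, as the median of -1.22 and -3.64. Over the pool DDX10 was at -2.38 in NGP and 0.04 in IMR-32. NGP was the lowest sample with each probe set. With the dim probe set left out the value was -1.22 and the call was lost, so the direction is shared by both probe sets and the size rests on the dim one.

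**Figure D3:**
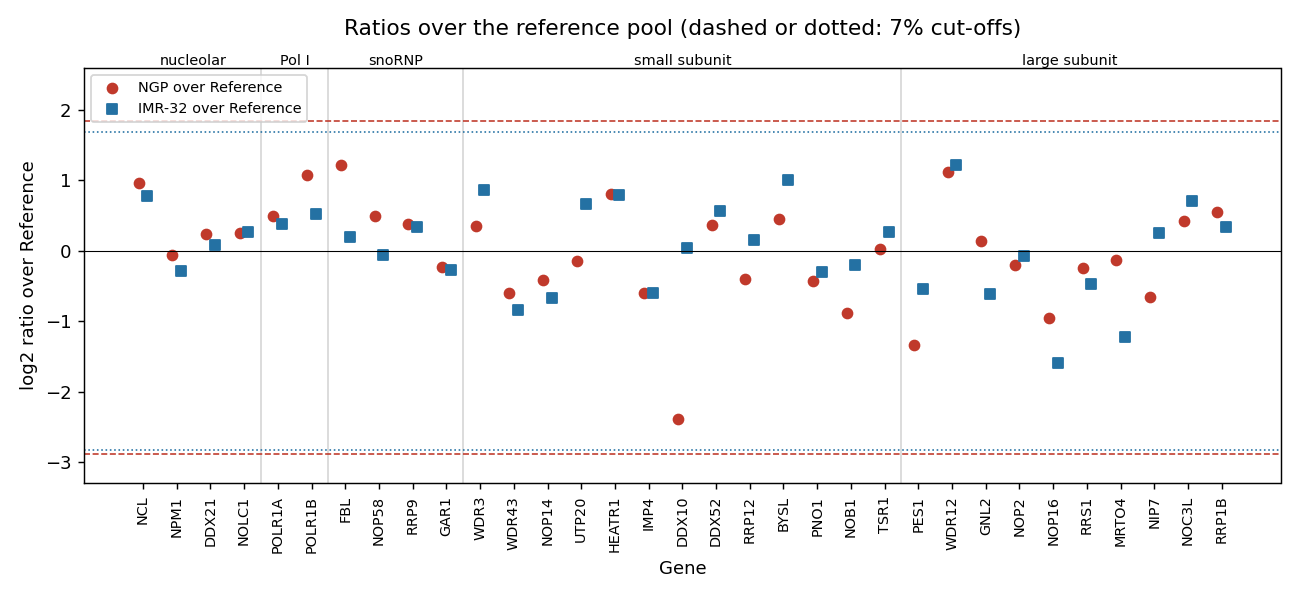
Gene values on the log2 scale relative to the pool (y-axis) for the 33 genes (x-axis, grouped by role) in NGP (circles) and IMR-32 (squares), with the 7% cut-offs of each line as dashed (NGP) and dotted (IMR-32) lines. No point reaches a cut-off, and DDX10 in NGP, at -2.38, comes nearest to a lower one.

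In the large subunit pathway 10 of 14 genes were measured. Their medians over the pool were -0.16 in NGP and -0.28 in IMR-32, with 6 of 10 genes below 0 in each. With median-centred arrays the medians were 0.11 and 0.13, so their side of the pool depends on the scaling. NOP16, a nucleolar protein of early large subunit precursors, had the lowest value of the list in IMR-32, at -0.95 in NGP and -1.60 in IMR-32. All of its 4 probe sets were lower in both lines, and the brightest had a signal of 2820 in NGP and 2572 in IMR-32, against 4955 in the pool. PES1, pescadillo, was at 1196 in NGP and 1912 in IMR-32, against 2542 in the pool, with its brighter probe set. The PES1 ratio was -1.34 in NGP and -0.54 in IMR-32. WDR12, the partner of PES1 in the PeBoW complex with BOP1, was level in the brightest of its 3 probe sets, at 4705 in NGP and 4648 in IMR-32, against 4375 in the pool. The WDR12 value of 1.11 in NGP and 1.22 in IMR-32 is that of a weaker probe set, at 285 in NGP and 308 in IMR-32, against 132 in the pool. Of the PeBoW pair, PES1 was thus below the pool in both lines and WDR12 depended on the probe set.

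MRTO4 and GNL2 were lowest in IMR-32. MRTO4, which holds the place of a stalk protein on large subunit precursors, had a signal of 2259 in NGP and 1376 in IMR-32, against 2720 in the pool, with its brighter probe set. Its other probe set gave 695 in NGP and 251 in IMR-32, against 690 in the pool. NGP thus exceeded IMR-32 with both probe sets, by 0.71 and 1.47, and the value of 1.09 was below the cut-off of 1.95. GNL2, a GTPase needed for large subunit maturation, was at 2584 in NGP and 1529 in IMR-32, against 2347 in the pool, from 1 probe set. NIP7, a protein that binds large subunit precursors, had the opposite order, at 997 in NGP and 1918 in IMR-32, against 1789 in the pool. Its other probe set gave the same order of the lines, with 673 in NGP and 1236 in IMR-32, against 928 in the pool.

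The remaining large subunit genes varied less. NOC3L, an assembly factor, was at 2655 in NGP and 3228 in IMR-32, against 1984 in the pool. RRP1B, a nucleolar protein with a role in chromatin as well, was at 7870 in NGP and 6280 in IMR-32, against 3735 in the pool, with its brighter probe set, while the dimmer was level at 0.03 in NGP and -0.07 in IMR-32. NOP2, an RNA methyltransferase long used as a marker of proliferation, was at 2498 in NGP and 2712 in IMR-32, against 2865 in the pool. RRS1, which brings 5S particles into the large subunit, was at 1643 in NGP and 1400 in IMR-32, against 1951 in the pool. A list of 13 proliferation genes had a median of 0.50 over the pool in NGP, 0.59 over it in IMR-32, and -0.01 for NGP over IMR-32, and its part in the levels of the nucleolar genes was not tested.

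Probe sets of the same gene did not rank the samples alike, which affected several genes near 2-fold. WDR12, NCL, HEATR1 and WDR3 had weaker probe sets at 1.11 to 2.24 in NGP over the pool, while the brightest probe sets of these genes lay between -0.67 and 0.32. Over all 19 genes with several probe sets there was no such tendency. The median of the other probe sets exceeded the brightest one in 9 of 19 genes in NGP and in 9 of 19 in IMR-32, against 49.9% and 50.4% of all genes with several probe sets.

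**Figure D4:**
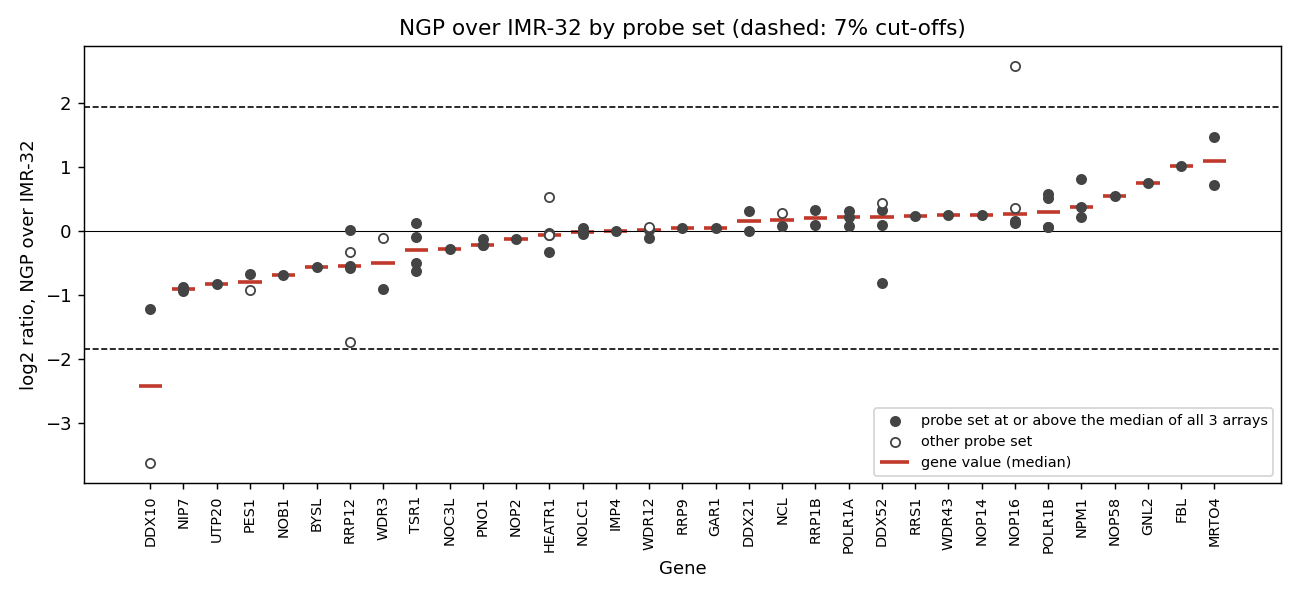
Log2 ratio of NGP over IMR-32 (y-axis) of each probe set of the 33 genes (x-axis, ordered by gene value), with probe sets at or above the median of all 3 arrays filled, others open, gene values as bars and the 7% cut-offs dashed. Of the gene values only that of DDX10, at -2.43, lies past a cut-off and that of MRTO4, at 1.09, is highest, while a weak probe set of NOP16 lies at 2.59.

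The lines were also compared directly, and each gene with the genes around it. For 29 of the 33 genes NGP and IMR-32 differed by less than 0.87, the standard deviation given above for probe sets that were not dim, and the 4 others were DDX10, NIP7, FBL and MRTO4. Each gene was set beside the median of its 24 nearest measured genes, 12 on each side in the gene order of GRCh38.p14. Across the 33 genes the value for NGP over IMR-32 and the median of the neighbours had a Pearson correlation of 0.74 and a Spearman correlation of 0.52. Without DDX10 these were 0.63 and 0.47. Over the pool they were 0.12 and -0.08 in NGP and 0.40 and 0.26 in IMR-32. All points of a comparison come from the same 2 arrays, and some of the genes lie near each other, such as NIP7 and NOB1 or NOP58 and WDR12. For NGP over IMR-32 the correlations over 19723 genes were 0.16 and 0.16, over 12311 genes without dim probe sets 0.25 and 0.25, and over the 125 further ribosome biogenesis genes 0.41 and 0.38. Of the 33 genes, 22 lay on the same side of 0 as their neighbours between the lines (66.7%), against 55.8% of all genes. This share was 58.5% among genes without dim probe sets and 64.0% among the further ribosome biogenesis genes. Over the pool 13 of the 33 genes lay on the side of their neighbours in NGP (39.4%), against 57.2% of all genes, and 14 in IMR-32 (42.4%), against 58.9%.

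Of the 12 genes beyond 0.5 between the lines, 9 lay on the same side of 0 as their neighbours. The share among all genes beyond 0.5 is not given here. For 7 of the 9 the neighbours had a median 0.35 or further from 0, a descriptive limit with FBL just at it. MRTO4 (chr1:19251805-19260128) was at 1.09 and its neighbours at 0.89, and GNL2 (chr1:37566816-37595937) was at 0.76 and its neighbours at 0.60. DDX10 (chr11:108665069-108940927) was at -2.43 and its neighbours at -0.89. UTP20 on chromosome 12 was at -0.82 beside neighbours at -0.50, BYSL on chromosome 6 at -0.56 beside -0.50, and WDR3 on chromosome 1 at -0.50 beside -0.44. FBL on chromosome 19 was at 1.02 beside neighbours at 0.35. Of the 5 others, PES1 and RRP12 shared the sign of neighbours that were close to 0. NIP7, NOB1 and NOP58 had neighbours on the other side of 0. NIP7, the second lowest gene (-0.91, neighbours 0.08), and NOB1 (-0.68, neighbours 0.27) on chromosome 16, and PES1 on chromosome 22 (-0.80, neighbours -0.07), were lower in NGP than the genes around them. RRP12 was at -0.55 with neighbours at -0.02, and NOP58 at 0.55 with neighbours at -0.01.

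**Figure D5:**
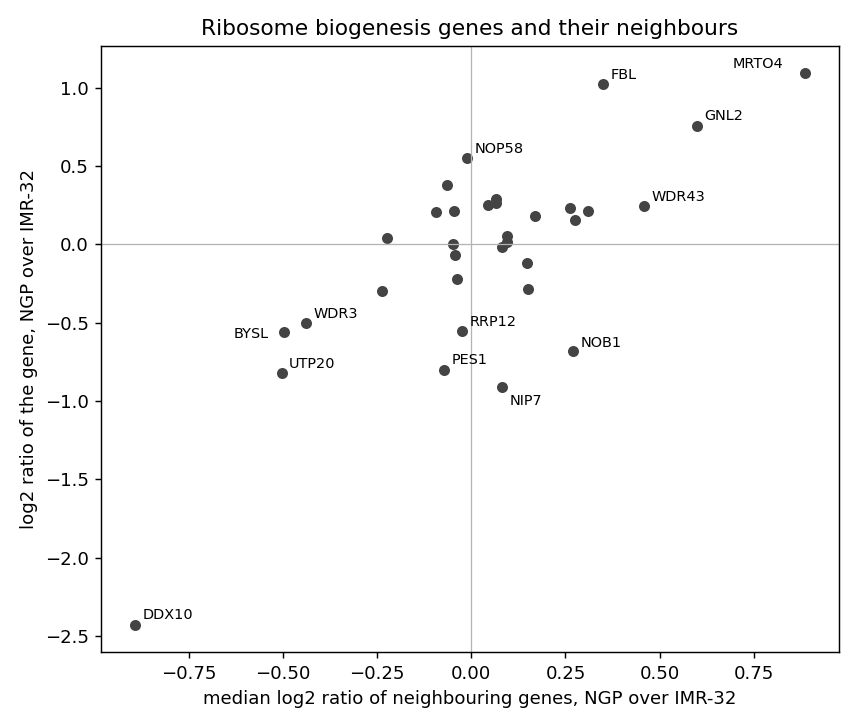
Log2 ratio of NGP over IMR-32 of each of the 33 genes (y-axis) against the median ratio of its 24 nearest measured genes (x-axis), 1 point per gene. MRTO4 and GNL2 lie high on both axes and DDX10 low on both, while NIP7, NOB1 and PES1 lie below their neighbours.

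Some of these genes lie in regions of copy number loss. The copy number arrays are not analysed here, and the regions were placed by genes at their borders. Of the 38 listed genes, 5 lay in a lost region that the study names. The study gives the losses of IMR-32 as examples, so the regions used here may not be all. MRTO4, GNL2 and EBNA1BP2 lie in the part of 1p lost in IMR-32, where NGP over IMR-32 had a median of 0.52 over 632 genes. DDX10 lies in the part of 11q lost in NGP, where the median was -0.53 over 285 genes. NOB1 lies at the border of the part of 16q lost in IMR-32, next to the gene taken as its border, and NGP was lower there than IMR-32, at -0.68, against a median of 0.59 over the 182 genes of the region. Across the 29 measured genes outside these named regions the correlation with the neighbours was 0.57 (Pearson) and 0.44 (Spearman). Other losses or low-level gains at these genes were not looked for. None of the 38 genes lay in an amplified region that the study names for either line.

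Further genes of the pathway were taken from a list of 129, of which 125 were measured. Their medians were 0.02 in NGP and 0.11 in IMR-32 over the pool. Within 2-fold of the pool were 86.4% and 88% of them, against 57.5% and 58.7% of all genes. Over the pool 0 genes were called higher or lower in either line (7.0% of all genes at each end). Set against IMR-32, NGP was lower for 82 and higher for 43 of the 125 genes, with a median of -0.18, and 1 gene was called higher and 1 lower (7.0% of all genes at each end). UTP11, a processome component on the lost part of 1p, was the gene called higher in NGP (2.11), from probe sets at 0.84 and 3.39. UTP6, also of the processome, was the gene called lower in NGP (-1.92), from probe sets at -0.30 and -3.54. NAF1, an assembly factor of box H/ACA snoRNPs, had a signal of 233 in NGP and 810 in IMR-32, against 534 in the pool, and EXOSC10, a nuclease of the exosome, a value of -1.43 for NGP over IMR-32 from probe sets at -3.85 and 0.99. EXOSC10 also lies on the lost part of 1p, where 3 of the 4 further genes measured were higher in NGP than in IMR-32 and EXOSC10 was lower. WDR18, a factor of large subunit maturation, was at 3309 in NGP and 1541 in IMR-32, against 1094 in the pool. TAF1C, of the RNA polymerase I selectivity factor, had probe sets at -0.17 and 2.16 for NGP over IMR-32. On the part of 16q lost in IMR-32, the gene values of the 2 further genes measured, TAF1C and EXOSC6, were higher in NGP than in IMR-32.

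Over the pool, EXOSC5, a core subunit of the exosome, was at 5705 in NGP and 3310 in IMR-32, against 1760 in the pool, and had the highest value in NGP (1.70). WDR18 followed at 1.60 and NOL10, a nucleolar factor of the small subunit, at 1.45 from probe sets that disagreed (-0.13 and 3.03). EIF6, which keeps the subunits apart until the large one is mature, was at 3113 in NGP and 3607 in IMR-32, against 7303 in the pool. UTP6 (-2.24) and EXOSC10 (-1.54) were lowest in NGP, each from 2 probe sets of which the brighter lay at -0.27 and 0.56. In IMR-32 the highest values were those of LTV1 (1.56), a small subunit export factor, of MDN1 (1.17), the large ATPase that remodels large subunit precursors, and of ESF1 (1.16), a nucleolar protein needed for small subunit RNA processing in yeast. The lowest in IMR-32 were NOC2L (-1.50) and UTP11 (-1.49), both on the lost part of 1p, and TAF1C (-1.46), on the lost part of 16q.

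Ribosomal protein genes, whose products these factors assemble, were also mostly within 2-fold of the pool. In each line 84.9% of them were, against 57.5% of all genes in NGP and 58.7% in IMR-32. Of 79 listed, 53 had a probe set of their own. Of these, 1 was called lower in IMR-32 than in the pool (7.0% of all genes at that end). Their medians over the pool were -0.03 in NGP and -0.28 in IMR-32. NGP was higher than IMR-32 for 39 of the 53, with a median of 0.20. With quantile-normalized arrays NGP was higher for 26 of the 53, so this direction depends on the scaling, while the further biogenesis genes kept a median below 0, at -0.19. Without _s_at and _x_at probe sets the median of the further genes was nearer 0, at -0.05, with NGP lower for 56 of 97. In that setting NGP was higher for 22 of 30 ribosomal protein genes, with a median of 0.20. These values were computed after the data were seen. Related genes that are not on the list of 38 had no common direction. DDX50, the neighbour and closest relative of DDX21, was at 4880 in NGP and 3656 in IMR-32, against 2901 in the pool, and NPM3, a relative of NPM1, at 525 in NGP and 538 in IMR-32, against 723 in the pool.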

How the data were processed

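The deposited values are signal intensities that the authors computed by MAS5 in the affy package (version not given in the sources used) from 1 Affymetrix U133 Plus 2.0 array per sample. Ratios leave out 62 control probe sets. Of the others, 41091 name 1 gene and were used, and 41037 of them were matched to the RefSeq gene table (GRCh38.p14) by gene ID for current symbols. Probe sets that name several genes (1801) were not used. Log2 ratios without a pseudocount were reduced to 1 value per gene, their median, a step added here. The ratio to the pool and the call of the top and bottom 7% follow the methods of the study. A single array per sample allows no p-value and limits the precision. All 38 listed genes are named by role. Of the further list, the 3 highest and 3 lowest genes of each comparison are named, among those whose brightest probe set was at or above the array median in a sample compared. The genes, lists and role groups were chosen with earlier results of these data known. Calling was tested on simulated data. The alternatives were median centring, quantile normalization, a pseudocount of 32, the removal of dim probe sets, only the brightest one, the mean in place of the median, the removal of _s_at and _x_at probe sets, and cut-offs of 5%, 10% and 2-fold. The software was matplotlib 3.10.9, SciPy 1.17.1, pandas 2.3.3 and numpy 2.4.6 under Python 3.11.15.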

Additional observations from a re-analysis of the deposited data

Results flagged for a closer look

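For 6 of the 33 genes the lines lay on opposite sides of the pool. The difference was not tested, since there is 1 array per line, and both ratios share the pool array. No share over all genes is given here, so the count is not a result about these genes. In IMR-32 all 6 ratios over the pool were smaller than 0.97, the standard deviation given above for probe sets that were not dim. UTP20 was at -0.15 in NGP and 0.67 in IMR-32, and NGP over IMR-32 was -0.82. DDX10 was at -2.38 in NGP and 0.04 in IMR-32, with -2.43 between the lines. RRP12 was at -0.40 in NGP and 0.15 in IMR-32, with -0.55 between the lines. NIP7 was at -0.65 in NGP and 0.26 in IMR-32, with -0.91 between the lines. GNL2 was at 0.14 in NGP and -0.62 in IMR-32, with 0.76 between the lines. NOP58 was at 0.49 in NGP and -0.07 in IMR-32, with 0.55 between the lines.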

How the results depend on the processing

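No paired analysis was possible because each sample has 1 array and no replicate number links the samples. For the same reason no array could be left out. Under the alternatives, 961 values of single genes stayed within the standard deviation between probe sets with the same call and 17 did not, and 0 called values changed sign. The median of the 33 genes moved beyond its binomial 95% interval once, to 0.56 for IMR-32 over the pool with median-centred arrays. The call of DDX10, NGP over IMR-32, was lost when dim probe sets were left out and with the brightest probe set (0 genes called lower in each), and at 10% 1 gene, DDX10, was called lower in NGP over the pool. With log2(signal + 32), 1 gene, FBL, was called higher in NGP over the pool. At 2-fold, 2 of the 33 genes were higher and 2 lower in IMR-32 over the pool, 3 higher and 2 lower in NGP over the pool, and 2 higher in NGP over IMR-32. Of the further genes, those called higher over the pool were 2 in NGP and 1 in IMR-32 with log2(signal + 32), 2 and 2 without _s_at and _x_at probe sets, 3 and 1 at 10%, and 8 and 9 at 2-fold. For NGP over IMR-32 they were 0 with dim probe sets left out, 0 with the brightest probe set, 3 without _s_at and _x_at probe sets, 0 at 5% and 2 at 2-fold. Signals of dim probe sets are near background, and the deposited table used here gives no detection calls.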

Other observations

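Some listed genes are covered only by probe sets that also name other genes. For NOP56, a core protein of the box C/D snoRNPs, 2 probe sets also name the snoRNAs and the miRNA hosted by the gene. The brighter of them had a signal of 8011 in NGP and 8727 in IMR-32, against 8349 in the pool, and the other 1153 in NGP and 1359 in IMR-32, against 1312 in the pool. Both differ by less than 0.25 on the log2 scale between any samples. The probe set shared by PPAN, a large subunit factor, and the PPAN-P2RY11 readthrough gene was at 812 in NGP and 744 in IMR-32, against 1324 in the pool.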
